A study of Mus musculus with 27 samples.

Results

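Whole hearts of mouse embryos that lacked the long non-coding RNA gene Hand2os1 (also called Hand2as or Uph) on both chromosomes were compared with hearts that lacked it on 1 chromosome, at E11.5 (E for embryonic day). The comparison rests on 6 of the 27 samples of the series, chosen by their labelled genotype and stage: Hand2asF/F replicates 1 to 3 and Hand2asF/+ replicates 1 to 3, here F/F and F/+. Allele F is the full-length deletion, the strain is C57BL/6, and no transgene or treatment is labelled. The controls therefore carry an F allele too, and no wild-type bulk heart of this stage belongs to the comparison. The rest of the series holds ventricles at E16.5 of the same genotypes and cells of 8-week-old hearts that are +/+, D/+ or D/D, where allele D is a distal deletion. It also holds 2 single-cell libraries at E11.5, each pooled from 6 hearts, whose control is +/+. The labels used here do not say whether a bulk library is a single heart or a pool, nor that the replicates are separate embryos, so p-values measure the spread between these libraries.

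Hand2 encodes a basic helix-loop-helix transcription factor that the right ventricle, the outflow tract and the endocardial cushions need, and Hand2os1 is transcribed away from it from a nearby start on the other strand. At this stage the heart is a looped tube with thin, trabeculated ventricles, and its arterial and venous poles are continuous with pharyngeal, foregut and lung bud tissue. Anterior Hox genes are targets of retinoic acid signalling, and in this region they are expressed in the posterior part of the second heart field, the progenitor pool that adds cells to both poles, and in foregut mesenchyme, neural crest and hindbrain. Heart muscle at this stage builds its sarcomeres and mitochondria, while liver and foregut lie close to the dissected organ.

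The 250 bases upstream of Hand2 are shown because the deleted gene starts inside them. They lie at chr8:57320733-57320982 on the plus strand of GRCm38.p6 (RefSeq), and the capitals mark the 123 bases between the start of Hand2os1, which runs on the minus strand, and the start of Hand2.
upstream of Hand2: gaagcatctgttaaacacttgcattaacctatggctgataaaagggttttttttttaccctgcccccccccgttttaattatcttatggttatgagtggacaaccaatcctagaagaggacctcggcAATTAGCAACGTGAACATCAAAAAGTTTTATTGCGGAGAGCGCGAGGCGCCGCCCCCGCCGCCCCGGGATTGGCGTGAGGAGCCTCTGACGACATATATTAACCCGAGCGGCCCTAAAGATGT

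Hand2os1 itself, LOC102636514 in this table (paired through RefSeq's gene number), was listed at 0 FPKM in all 6 libraries, F/+ included, so the genotype labels could not be checked with it at this stage. FPKM is a read count divided by the length of the transcript and the size of the library, so it is a level per length, and the reads behind it are unknown. Hand2 levels were 58.6, 77.5 and 86.7 FPKM in the F/+ libraries, replicates 1, 2 and 3 in this order here and below, and 75.9, 79.1 and 69.2 FPKM in the F/F libraries. The F/F values lay inside the range of the controls. The log2 fold change of Hand2, F/F against F/+, was 0.03 (SE 0.18), and an exact permutation test, two-sided, gave p = 0.9, where 3 libraries against 3 cannot go below 0.1. The sign of that fold change turned to -0.05 after upper-quartile scaling and to -0.07 after rescaling without globin and small RNA genes. Of the neighbours on both sides, Hpgd, Cep44, Fbxo8, Galnt7, Hmgb2 and Sap30 each had a limma adjusted p of 0.999, and Scrg1 was listed at 0 in all 6 libraries.

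The tissue label was checked on heart muscle genes, which were high in every library: Myl2, the ventricular regulatory light chain, was at 2912 to 4213 FPKM and Tnnt2, cardiac troponin T, at 1434 to 2114 FPKM. The columns summed to 376930 to 586795 FPKM, and 11043 to 11641 genes reached 1 FPKM per library. Globin genes of primitive blood took 10.4% to 29.7% of the FPKM. The sexes were mixed in both groups by Xist and Y-linked genes. A value near 0 does not show absence in this table: Gapdh was listed at 0.12 to 1.92 FPKM in these libraries, whereas the single-cell libraries held 88736 and 125135 Gapdh UMIs (counted molecules).

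The test ran on the 11491 genes whose mean over the 6 libraries reached 1 FPKM, and 1 of them passed limma's test at an adjusted p of 0.05 (0.0087%), the microRNA gene Mir6236. At an unadjusted p of 0.05, 502 genes passed (4.37%), 257 of them higher in F/F and 245 lower. Groups separated without overlap, all 3 F/F libraries on 1 side of all 3 F/+ libraries, for 566 genes that were higher in F/F (4.93%) and 495 that were lower (4.31%), or 1061 in all (9.23%). The split leaned the other way under other scalings: 361 higher (3.14%) and 741 lower (6.45%) after upper-quartile scaling, and 322 higher (2.81%) and 844 lower (7.35%) after rescaling without globin and small RNA genes. Those scalings moved the median log2 fold change of all genes from 0.02 to -0.05 and -0.07. Labels assigned at random to 3 and 3 libraries would separate a gene, in 1 direction or the other, with a probability of 0.1. The 9.23% separated here was not above that. Because 1 gene passed the test, the genes described below are values of these 6 libraries. A list is read against the shares of all genes given here. Leaving out a library raised the counts. Without F/+ replicate 3, 957 genes were higher (8.33%) and 1774 lower (15.4%), and without F/+ replicate 1 the counts were 1121 (9.76%) and 730 (6.35%). Smaller groups separate more easily and such a count cannot fall, so a rise alone does not mark the library left out.

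**Figure D1:**
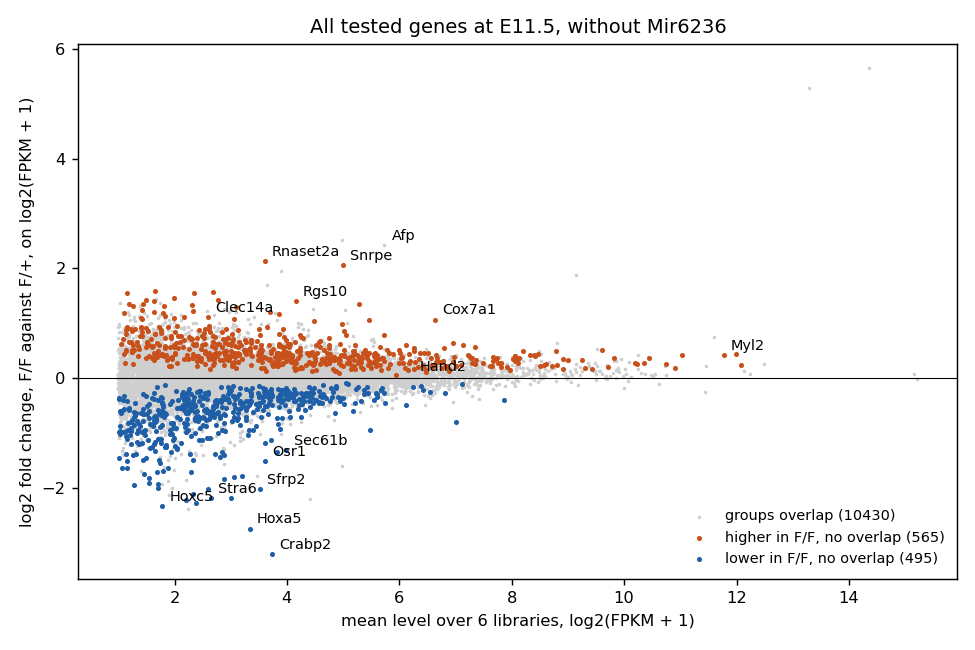
Each point is a tested gene, with its mean level over the 6 libraries on the x axis and its log2 fold change, F/F against F/+, on the y axis, both on log2(FPKM + 1). Colours mark the genes whose groups do not overlap, and Mir6236, at a log2 fold change of 14.18, is left out. Lower genes such as Crabp2 and Hoxa5 reach larger changes than higher genes of similar level, and Hand2 lies near 0.

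Mir6236 had no FPKM in any of the 3 F/+ libraries, being listed at 0, and 10852, 27597 and 21247 FPKM in the F/F libraries. Those values made up 2.45% to 4.70% of all FPKM of an F/F library, and no F/+ library had any. The fitted log2 fold change, which depends on the pseudocount, was 14.18 (SE 0.28), and limma gave an adjusted p of 1.50e-09 (3.71e-21 to 1.14e-05 over the alternatives that tested it). At E16.5 the order was the opposite, with 17.6, 48.8 and 38.6 FPKM in F/+ and 0 in all 3 F/F libraries, and all 13 libraries of 8-week-old hearts were listed at 0. The annotated mature sequence is shown because no other gene passed the test. It lies at chr9:110281353-110281371 on the plus strand of GRCm38.p6 (RefSeq), and the capitals mark the seed, bases 2 to 8.
mmu-miR-6236: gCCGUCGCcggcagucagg
No other of the 1738 mature mouse microRNAs of the RefSeq table has this seed. Poly(A) libraries do not measure a mature microRNA of this length, so the value belongs to the short annotated gene and not to the mature RNA. Only 5 of 1081 listed microRNA genes passed the filter on low values. Mir682 was listed at 126533 FPKM in F/F replicate 2 and at 0 in the other 5 libraries. Mir8112 was at 10402 FPKM in F/+ replicate 1 and 6210 FPKM in F/F replicate 1 and at 0 elsewhere, so short RNA genes took such values in single libraries of both genotypes. Rn45s, the ribosomal RNA precursor, was at 2939, 4174 and 6491 FPKM in F/+ and 3494, 9032 and 2930 FPKM in F/F, and its groups overlapped. The part of ribosomal or other short RNA in the Mir6236 value was not tested.

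Anterior Hox genes, transcription factors that give cells their position along the head-to-tail axis, formed the list with the lowest median. Of 25 listed Hox genes 13 passed the filter, and 9 of these were lower in F/F without overlap, against 4.31% of all genes, with none higher. Their median log2 fold change was -1.83, against 0.02 over all genes, and -1.90 after upper-quartile scaling. Leaving out each library in turn gave 9 to 12 lower members and medians of -2.37 to -1.54. A count without overlap cannot fall when a library is left out, and the share of all genes rose too, to between 6.35% and 15.4%. No Hox gene passed limma's test, and the smallest adjusted p among them was 0.232. The passing filter favours genes that are present in at least 1 group, and the other 12 Hox genes had means under 1 FPKM.

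Hoxa5, which is expressed in lung bud and foregut mesenchyme, was at 27.9, 15 and 7.53 FPKM in F/+ and at 0.540, 1.80 and 2.04 FPKM in F/F. The lowest control was above the highest F/F library, although the controls differed among themselves, with replicate 1 highest. Its mean was 16.8 ± 10.3 FPKM in F/+ and 1.46 ± 0.806 FPKM in F/F (SD, n = 3 each), a log2 fold change of -2.74 (SE 0.44). The limma adjusted p was 0.259, and 3.74e-05 to 1 over the alternatives. Hoxc5 was at 5.06, 5.31 and 3.83 FPKM in F/+ and at 0, 0.450 and 0 FPKM in F/F, with 3 control libraries that lay close together. The log2 fold change of Hoxc5 was -2.33 (SE 0.36), and its limma adjusted p of 0.232 ranged from 2.23e-10 to 0.915 over the alternatives. Hoxa4 was at 9.06, 6.28 and 4.23 FPKM in F/+ against 0.0600, 1.41 and 0.460 FPKM in F/F (log2 fold change -2.23, SE 0.41). Hoxa3, which patterns the pharyngeal arches and neural crest, was at 9.46, 12.8 and 4.25 FPKM in F/+ and at 1.1, 1.85 and 0.880 FPKM in F/F (log2 fold change -2.02, SE 0.39). In both of these genes F/+ replicate 3 was the lowest control and still above every F/F library.

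Hoxb3 was at 11.3, 16.9 and 3.82 FPKM in F/+ and at 2.30, 3.36 and 0.620 FPKM in F/F, and Hoxc4 at 7.98, 8.13 and 3.62 FPKM against 1.94, 1.12 and 0.710 FPKM. For Hoxb3 the gap between the lowest control and the highest F/F library was narrow. Hoxa2 and Hoxd3 were also among the 9, with log2 fold changes of -1.93 and -0.99. The other tested members, Hoxb2, Hoxb4, Hoxb5 and Hoxb6, overlapped between the groups, with log2 fold changes of -0.89, -1.06, -1.88 and -1.18. Hoxb5, for example, had 12.7 and 3.37 FPKM in the first 2 controls but was listed at 0 in F/+ replicate 3, and 2 F/F libraries were at 0 as well. Genes of the A, B, C and D clusters were thus all among those with negative fold changes. The 25 listed Hox genes together summed to 129, 103 and 43.1 FPKM in F/+ and to 15.1, 20.0 and 10.6 FPKM in F/F.

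**Figure D2:**
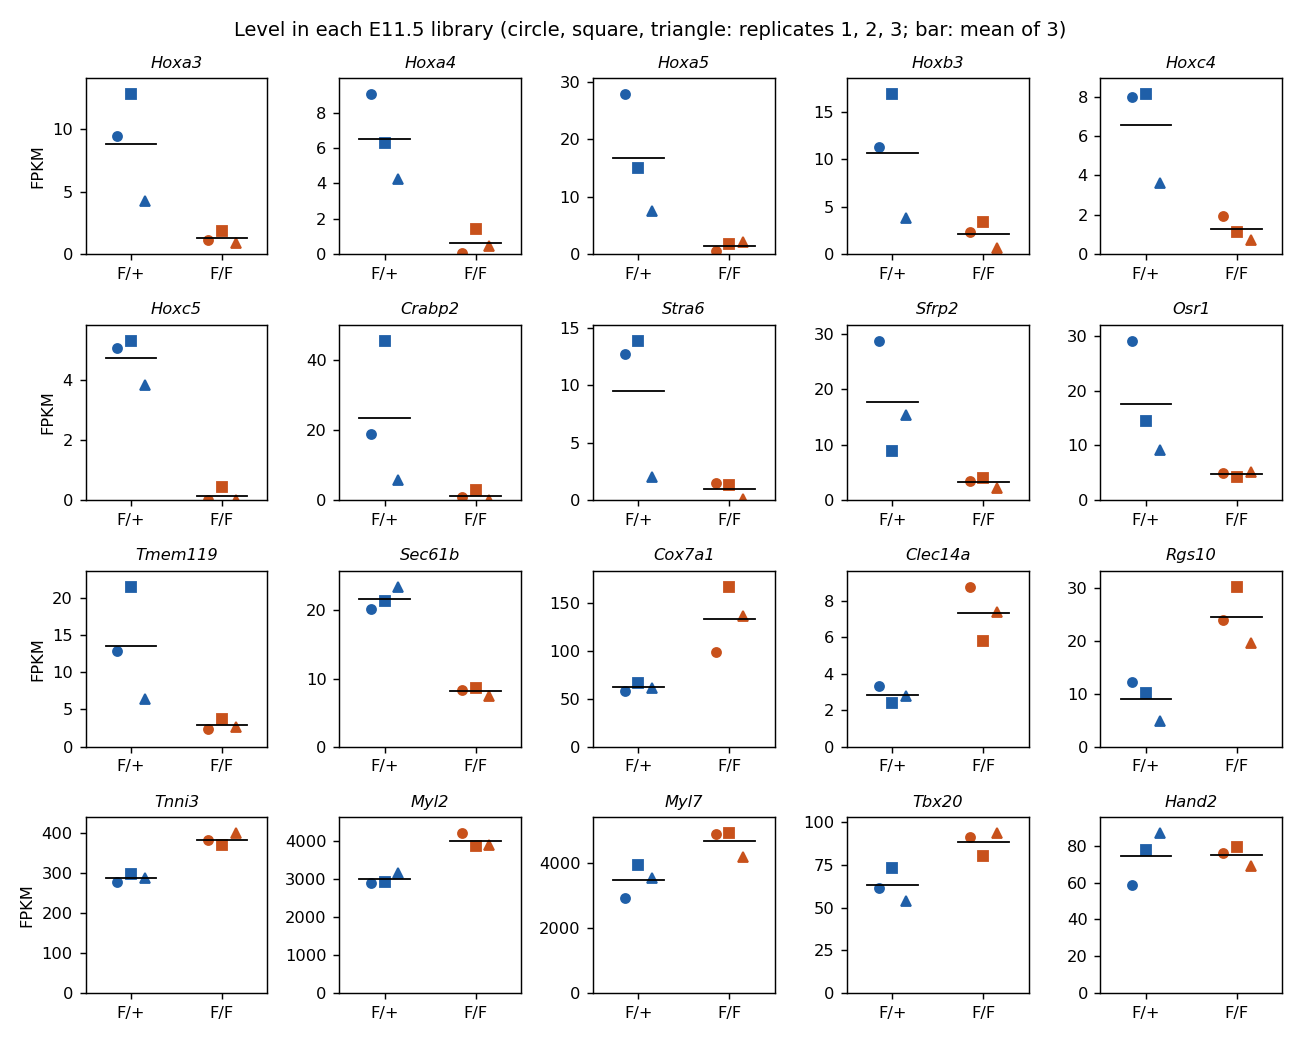
Levels in FPKM (y axis of each panel, from 0) of 20 genes in the 3 F/+ and 3 F/F libraries. Circle, square and triangle are replicates 1, 2 and 3, and the bar is the mean. The Hox genes, Crabp2, Sfrp2 and Osr1 are low in all 3 F/F libraries, and several of them spread widely among the controls. Sec61b and Tnni3 separate with a small spread, and Hand2 overlaps.

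Among the other genes of retinoic acid handling, a pathway in which vitamin A is taken up, oxidised in steps and bound by nuclear receptors, 3 of 13 tested members were lower in F/F without overlap and none was higher. The list's median log2 fold change was -0.00. Crabp2, which carries retinoic acid to its receptors in the nucleus, was at 18.8, 45.5 and 5.72 FPKM in F/+ and at 1.04, 2.79 and 0 FPKM in F/F. It had the lowest fold change of all named genes, -3.22 on the log2 scale (SE 0.66), with controls that differed several-fold among themselves and a limma adjusted p of 0.519 (0.000374 to 1 over the alternatives). Stra6, the cell-surface receptor for the retinol carrier, was at 12.7, 13.9 and 2.04 FPKM in F/+ and at 1.51, 1.34 and 0.120 FPKM in F/F (log2 fold change -2.19, SE 0.59). Rdh10, which makes retinaldehyde from retinol, was at 5.94, 2.21 and 2.01 FPKM against 0.290, 1.82 and 1.90 FPKM, with 2.01 and 1.90 FPKM in the nearest libraries of the groups.
The receptors Rara, Rarb, Rarg and Rxra overlapped between the groups, with log2 fold changes of 0.04, 0.05, -0.29 and 0.11. Aldh1a2, the enzyme that makes most retinoic acid in the embryonic heart, was at 42.5, 24.1 and 41.3 FPKM in F/+ and 27.6, 36.4 and 29.3 FPKM in F/F, and its groups overlapped. Separation was thus seen in 3 genes of uptake, oxidation and carriage, and the values of the receptors and of this enzyme overlapped.

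Sfrp2, Osr1 and Tmem119 were further genes with large negative fold changes. Sfrp2, a secreted Wnt antagonist of mesenchyme, was at 28.7, 8.91 and 15.4 FPKM in F/+ and at 3.41, 3.99 and 2.25 FPKM in F/F (log2 fold change -2.03, SE 0.38; limma adjusted p = 0.417, and 0.00307 to 1 over the alternatives). Osr1, a zinc finger factor of the posterior second heart field and of foregut mesenchyme, was at 29.1, 14.4 and 9.09 FPKM in F/+ and at 5.03, 4.32 and 5.19 FPKM in F/F (log2 fold change -1.52, SE 0.36). The 3 F/F libraries agreed within 1 FPKM for Osr1 while the controls did not. Tmem119, a membrane protein of osteoblasts and microglia, was at 12.8, 21.4 and 6.38 FPKM in F/+ and 2.31, 3.73 and 2.56 FPKM in F/F (log2 fold change -1.79, SE 0.38). Of 22 tested Wnt pathway genes 3 were lower, Sfrp2, Sfrp1 and Wnt2, and 1 was higher, Wnt4. Wnt2, a ligand of the atrial pole and lung bud, was at 12.6, 11.9 and 10.2 FPKM against 9.71, 8.55 and 9.10 FPKM.

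Markers of tissue next to the heart were read library by library. A list of lung bud and foregut mesenchyme genes, chosen after the values were seen, had 10 tested members, of which 6 were lower in F/F without overlap and none was higher: Osr1, Ptch1, Gli2, Gli3, Barx1 and Tbx4. Ptch1 and the Gli factors, receptor and transcription factors of hedgehog signalling, had log2 fold changes of -0.63, -0.77 and -0.58. Tbx4, a T-box factor of the lung bud mesenchyme, was at 11.4, 1.33 and 0.590 FPKM in F/+ and 0.340, 0.300 and 0.0400 FPKM in F/F, so F/+ replicate 1 set its mean. The 13 listed genes summed to 121, 50.2 and 33.0 FPKM in F/+ and to 24.2, 27.9 and 20.0 FPKM in F/F. Without F/+ replicate 1 its median log2 fold change was -0.43 in place of -0.97, with 6 members lower, a count that cannot fall when a library is left out. Nkx2-1, the factor of lung and thyroid epithelium, was at 7.86, 0 and 0.820 FPKM in F/+ and was listed at 0 in the 3 F/F libraries. Foxf1 was at 21.7 FPKM in F/+ replicate 1 and at 0.150 to 2.65 FPKM in the other 5 libraries.

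Epithelial and pharyngeal markers differed in which control was high. Epcam, an epithelial adhesion protein, was at 4.96, 4.59 and 1.27 FPKM in F/+ and 0, 0.330 and 0.280 FPKM in F/F, the 1 of 6 tested foregut epithelium markers that separated. The 13 listed genes of that kind summed to 104, 67.5 and 49.5 FPKM in F/+ and to 55.2, 72.8 and 40.8 FPKM in F/F, and the groups overlapped. Six2 and Tbx1, factors of pharyngeal mesoderm, were highest in F/+ replicate 2: Tbx1 was at 1.32, 7.92 and 1.23 FPKM in F/+ against 0.05, 1.02 and 0.600 FPKM in F/F. They were 2 of 3 tested members of a pharyngeal list, also chosen after the values were seen, whose 11 listed genes had overlapping sums of 15.2, 30.4 and 7.70 FPKM in F/+ and 2, 13.9 and 6.40 FPKM in F/F. Sox10, a neural crest factor, was at 5.61, 3.77 and 2.36 FPKM against 0.570, 1.28 and 0.340 FPKM, the 1 of 5 tested neural markers that separated. F/+ replicate 1 was high in the lung bud list and F/+ replicate 2 in the pharyngeal list. Both lists were chosen with the values in view, so this is a description. The part of tissue next to the heart in the Hox, Crabp2 and Osr1 values was not tested. In bulk hearts, fewer cells of a type and less RNA per cell cannot be told apart.

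Liver genes did not follow the genotype. The 18 listed hepatocyte markers summed to 363, 6.6 and 10.9 FPKM in F/+ and to 21.0, 802 and 78.6 FPKM in F/F, and none of the 15 tested separated the groups. Afp, the fetal serum protein, was at 86.3, 0 and 0 FPKM in F/+ and at 3.50, 209 and 13.4 FPKM in F/F. The list's median log2 fold change of 0.95 was the highest of the lists plotted and ranged from -0.36 to 2.14 when each library was left out in turn. Without F/+ replicate 1 and F/F replicate 2, the libraries with the highest hepatocyte sums, 10 of 13 Hox genes were lower without overlap, with a median of -1.53, against 11.8% of all genes. That alternative was chosen after the values were seen, and leaving libraries out cannot lower the count.

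**Figure D3:**
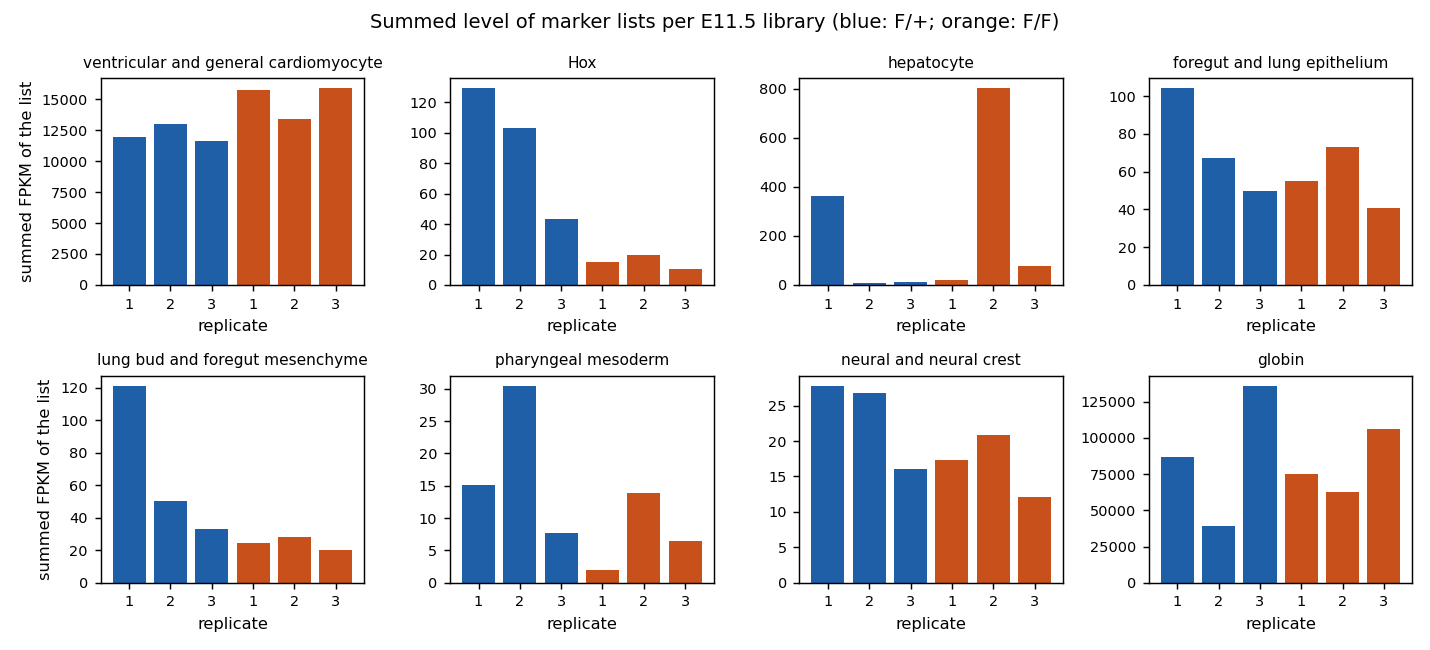
Summed FPKM of 8 marker lists (y axes, from 0) in each E11.5 library, F/+ in blue and F/F in orange, by replicate. Hox sums are above 43 FPKM in each control and at most 20.0 FPKM in F/F. Cardiomyocyte sums, unscaled, are higher in each F/F library, with a narrow gap between the nearest libraries. Hepatocyte sums peak in F/+ replicate 1 and F/F replicate 2, and globin sums overlap.

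Single cells of the same stage show where these genes were read, as a description with 1 library per genotype and no test. The +/+ library held 2563 barcodes with a median of 13369 UMIs and the F/F library 3469 barcodes with a median of 13403, and 18 barcode sequences occurred in both. Of 21 clusters, 2 small ones had the highest levels of several genes named above. Cluster 19 (18 +/+ and 17 F/F cells) was led by Gal, Vsnl1, Osr1, Shox2 and Nr2f1 and stayed unnamed, as did cluster 17 (60 and 68 cells), led by Rgs5, Eln, Cxcl12, Isl1 and Hand1. Osr1 reached 138 CPM (UMIs scaled to a common total) in cluster 19 and 57.2 CPM in cluster 16, whose cells resembled atrial and sinus cardiomyocytes. Sfrp2 was at 62.6 CPM in cluster 19 and 48.3 CPM in cluster 17, and Crabp2 was highest in cluster 17, at 57.1 CPM.
Hox genes were sparse: Hoxa5 was at 13.0 CPM in cluster 19 on 5 UMIs, and Hoxa3 at 13.2 CPM in cluster 17 on 18 UMIs. Most UMIs of these 2 genes lay elsewhere. Of the 46 Hoxa5 UMIs 20 were in cluster 2, which resembled endothelium, and of the 58 Hoxa3 UMIs 20 were in cluster 7, which resembled cushion mesenchyme. Other Hox genes differed: clusters 19 and 17 held 22 and 37 of the 101 Hoxb4 UMIs, and 3 and 14 of the 26 Hoxa2 UMIs. Cluster 17 also held 22 of the 23 Nkx2-1 UMIs. Over the 20 clusters with at least 30 cells, which leaves out the hepatocyte-like cluster, and genes with at least 50 UMIs, cluster 19 had the highest CPM for 101 of 447 lower genes (22.6%) and 32 of 541 higher genes (5.91%), against 12.9% of all 10877 genes. For cluster 17 these shares were 10.3%, 2.77% and 6.71%.

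**Figure D4:**
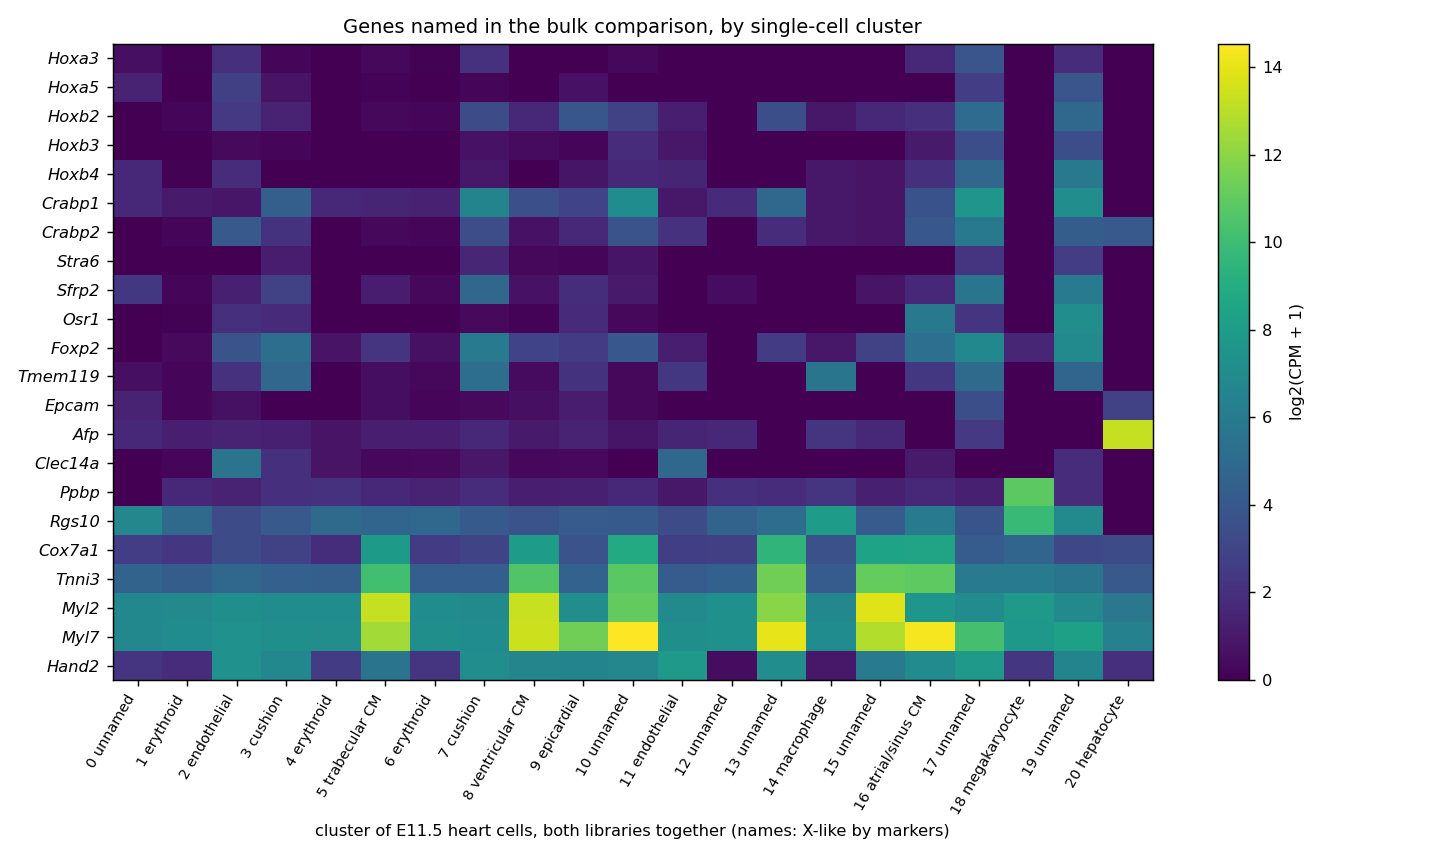
Colour gives log2(CPM + 1) of genes (rows) in the 21 clusters of E11.5 heart cells (columns), both libraries together, with names given as resembling a cell type by markers. Osr1 is brightest in clusters 19 and 16, Sfrp2 and Hoxb4 in clusters 19 and 17, and Crabp2 and Hoxa3 in cluster 17. Ppbp and Rgs10 are brightest in the megakaryocyte-like cluster and Afp in the hepatocyte-like cluster. Myl2 is brightest in cluster 15, Myl7 in cluster 10 and Tnni3 and Cox7a1 in cluster 13, which all stayed unnamed.

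Several heart muscle genes were on the higher side. Of 13 tested ventricular and general cardiomyocyte genes 4 were higher in F/F without overlap, against 4.93% of all genes, and none was lower, with a median log2 fold change of 0.23. After upper-quartile scaling 4 were higher (median 0.15), and after rescaling without globin and small RNA genes 2 were (median 0.13). Tnni3, cardiac troponin I, was at 278, 297 and 288 FPKM in F/+ and 383, 370 and 400 FPKM in F/F. The libraries within each group lay close together, at 288 ± 9.59 and 384 ± 14.8 FPKM (SD, n = 3 each). The log2 fold change of Tnni3 was 0.42 (SE 0.13), and its limma adjusted p of 0.999 ranged from 0.238 to 1 over the alternatives. Myl2 was at 2912, 2939 and 3166 FPKM in F/+ and 4213, 3893 and 3901 FPKM in F/F (log2 fold change 0.41, SE 0.15). Myl3 and Tnni1, the ventricular essential light chain and the fetal troponin I, had log2 fold changes of 0.36 and 0.27. Actc1, Tnnt2, Myh6 and Myh7 overlapped between the groups, with log2 fold changes of 0.23, 0.22, -0.07 and 0.16, so the heavy chains did not separate.

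Atrial genes gave a similar picture, with 3 of 10 tested members higher and none lower. Myl7, the atrial regulatory light chain, was at 2915, 3945 and 3530 FPKM in F/+ and 4889, 4902 and 4175 FPKM in F/F (log2 fold change 0.43, SE 0.17). Myl4, the atrial essential light chain, had the same fold change, 0.43, and Stard10 one of 0.52. None of 8 tested trabecular genes separated. Of 23 tested sarcomere and Z-disc genes 3 were higher, Tpm1, Pdlim5 and Cryab, and of 6 smooth muscle genes 2 were higher, Tagln and Myl9. After upper-quartile scaling and after rescaling none of the sarcomere genes and 1 of the smooth muscle genes was higher, while the atrial count stayed at 3. The cardiomyocyte list summed to 11960, 12970 and 11620 FPKM in F/+ and 15760, 13390 and 15870 FPKM in F/F. These sums are unscaled, and the gap between 12970 and 13390 FPKM is narrow.
Among 27 tested cardiac transcription factors 4 were higher and none was lower, and 2 were higher after upper-quartile scaling. Tbx20, a T-box factor of chamber muscle and endocardium, was at 61.8, 73.4 and 54.0 FPKM in F/+ and 91.5, 80.5 and 93.6 FPKM in F/F (log2 fold change 0.49, SE 0.17). Gata4, a zinc finger partner of several cardiac factors, was at 82.5, 87.0 and 75.9 FPKM against 115, 110 and 92.3 FPKM (log2 fold change 0.37). Hey2, which marks compact ventricular muscle, and Smyd1, a muscle methyltransferase, had log2 fold changes of 0.39 and 0.30. Nkx2-5, Tbx5 and Isl1 overlapped, with log2 fold changes of 0.38, 0.01 and 0.31. Of 21 tested calcium handling and channel genes 2 were lower, against 4.31% of all genes, none was higher, and the list's median was 0.07. Cacna1g, a T-type calcium channel of the conduction system, was at 3.01, 5.72 and 3.58 FPKM in F/+ and 0.690, 1.22 and 1.45 FPKM in F/F (log2 fold change -1.25, SE 0.35), and Kcnj3, an atrial potassium channel, at 3.59, 5.86 and 5.17 FPKM against 1.22, 2.20 and 3.22 FPKM. Hcn4, the pacemaker channel, overlapped (log2 fold change 0.08).

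As deposited, nuclear genes of oxidative phosphorylation, the respiratory chain and ATP synthase, had the largest number of separated members among the lists. That is a count and not a share, and after rescaling without globin and small RNA genes the Hox list had more, with 9. Of 58 listed genes 56 were tested, and 18 were higher in F/F without overlap, against 4.93% of all genes. None was lower, and the median log2 fold change was 0.25. The count depended on scaling. After upper-quartile scaling 10 were higher, against 3.14% of all genes, and 1 lower (median 0.18). After rescaling without globin and small RNA genes 7 were higher, against 2.81% of all genes, and 1 lower (median 0.16). Cox7a1, the heart and muscle form of a cytochrome oxidase subunit, was at 58.4, 66.2 and 61.4 FPKM in F/+ and 98.7, 167 and 136 FPKM in F/F. The controls were close together at 62.0 ± 3.90 FPKM and the F/F libraries less so at 134 ± 34.1 FPKM (SD, n = 3 each). The log2 fold change of Cox7a1 was 1.07 (SE 0.20), and its limma adjusted p of 0.417 ranged from 0.0110 to 1 over the alternatives. Ndufb2, a complex I subunit, was at 108, 88.4 and 137 FPKM against 172, 186 and 145 FPKM (log2 fold change 0.61), and Atp5k, an ATP synthase subunit, at 585, 591 and 763 FPKM against 852, 989 and 900 FPKM (0.51). The other 15 were Ndufa3, Ndufs3, Ndufv2, Sdhc, Uqcrc1, Uqcrh, Cyc1, Cox5a, Cox6a2, Cox6b1, Cox6c, Atp5b, Atp5g3, Atp5j and Atp5o, so members of every respiratory complex and of ATP synthase were among them.
These transcripts are short, with a median of 581 bases, and short genes as a whole leaned the same way. Genes with transcripts of up to 1 kb had a median log2 fold change of 0.04, and 5.69% of 4325 were higher and 3.75% lower without overlap. Genes with transcripts over 4 kb had a median of -0.03, with 3.59% of 781 higher and 5.51% lower. The part of transcript length in the oxidative phosphorylation values was not tested.

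Carbon metabolism had smaller shifts of the same sign. Of 20 tested glycolysis genes 5 were higher and none lower, of 19 citrate cycle genes 4 and none, and of 23 genes of fatty acid use 4 and none. The medians were 0.18, 0.12 and 0.12. Without F/+ replicate 3 they were 0.028, 0.001 and 0.12, against -0.057 over all genes. After upper-quartile scaling the counts were 1, 2 and 2 and the medians 0.10, 0.05 and 0.05, and after rescaling without globin and small RNA genes the counts were again 1, 2 and 2. Pgam1, a phosphoglycerate mutase, was at 17.3, 12.1 and 10.3 FPKM in F/+ and 25.1, 24.6 and 18.2 FPKM in F/F (log2 fold change 0.75, SE 0.24). Acadl, the long-chain acyl-CoA dehydrogenase, was at 38.4, 38.3 and 40.2 FPKM against 60, 48.4 and 54.6 FPKM (0.47, SE 0.16), and Dlat, a pyruvate dehydrogenase subunit, at 22.5, 24.8 and 14.4 FPKM against 30.4, 33.8 and 28.9 FPKM (0.60, SE 0.22). Acadl had tight controls, whereas F/+ replicate 3 was the lowest library for Pgam1 and Dlat. Of 76 tested mitochondrial ribosome genes 5 were higher and 2 lower, against 4.93% and 4.31% of all genes. Of 61 cytosolic ribosomal protein genes 6 were higher and none lower, with 3 higher and 3 lower in this list after upper-quartile scaling.

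Several endothelial genes, with Rgs10 and Ppbp, also lay on the higher side. Of 12 tested endothelial and endocardial genes 5 were higher without overlap and none lower, with a median log2 fold change of 0.21, but after upper-quartile scaling 1 was higher (median 0.14). They were Nfatc1, an endocardial factor, Tek and Kdr, receptors for angiopoietin and VEGF, Egfl7 and Pecam1, with log2 fold changes of 0.37, 0.34, 0.25, 0.34 and 0.22. Clec14a, an endothelial surface lectin outside that list, was at 3.33, 2.38 and 2.78 FPKM in F/+ and 8.75, 5.80 and 7.38 FPKM in F/F (log2 fold change 1.11, SE 0.27; limma adjusted p = 0.905, and 0.201 to 1 over the alternatives). Every F/F library was well above the controls, and in single cells its highest level, 46.4 CPM, was in cluster 2, which resembled endothelium.
Rgs10, a G protein regulator, was at 12.2, 10.1 and 4.92 FPKM against 24.0, 30.2 and 19.6 FPKM (log2 fold change 1.41, SE 0.31), and Ppbp, a platelet chemokine, at 4.37, 1.12 and 8.10 FPKM against 10.8, 11.7 and 9.08 FPKM (1.29, SE 0.45). Both were highest in single cells of cluster 18, which resembled megakaryocytes, at 893 and 1836 CPM. Ppbp was the 1 of 7 tested megakaryocyte markers that separated, and that list's median was 0.30, or 0.087 without F/F replicate 2. The 8 listed genes summed to 107.3, 106.6 and 98.88 FPKM in F/+ and to 105.7, 240.3 and 89.26 FPKM in F/F, and the groups overlapped. None of 8 tested macrophage markers, none of 7 globins and 1 of 12 other erythroid genes separated. Of 12 tested cushion mesenchyme genes 1 was lower, Col3a1, at 121, 126 and 120 FPKM against 104, 100 and 97.5 FPKM (log2 fold change -0.28, SE 0.14), and 3 were lower after upper-quartile scaling.

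Stress and growth-arrest genes were a smaller group. Cdkn1a, which encodes the cell cycle inhibitor p21, was at 10.1, 11.9 and 7.08 FPKM in F/+ and 17.7, 19.6 and 14.9 FPKM in F/F (log2 fold change 0.80, SE 0.24). With Ccng1 and Phlda3 it made 3 of 12 tested inhibitors and p53 targets that were higher, and none was lower. Under median-ratio scaling, upper-quartile scaling and rescaling 1 of the 12 was higher, with medians of 0.05, 0.00 and -0.02. Ddit3, a transcription factor of the unfolded protein response, was at 7.34, 3.99 and 14.4 FPKM against 19.9, 17.7 and 17.9 FPKM (1.18, SE 0.35), and Cyr61, a matrix protein induced by YAP and serum response signalling, at 29.6, 42.0 and 42.6 FPKM against 68.0, 55.0 and 73.9 FPKM (0.78, SE 0.20). Of 19 tested immediate early genes 5 were higher and none lower, and of 25 unfolded protein and heat shock genes 3 and none, with 3 and 3 higher after upper-quartile scaling. Of proliferation genes as deposited, 1 of 28 tested S phase genes was lower, Pole, and none of 26 mitosis genes separated. After upper-quartile scaling 4 and 2 were lower, and after rescaling 3 and 3, with none higher. Among signalling lists, 1 of 15 Notch genes (Dll4), 2 of 25 BMP and TGF-beta genes (Bmp5 and Smad6) and 2 of 22 FGF, neuregulin and IGF genes (Dusp6 and Igf2) were higher, against 4.93% of all genes. None of those 3 lists had a lower member, although each had 1 after upper-quartile scaling.

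**Figure D5:**
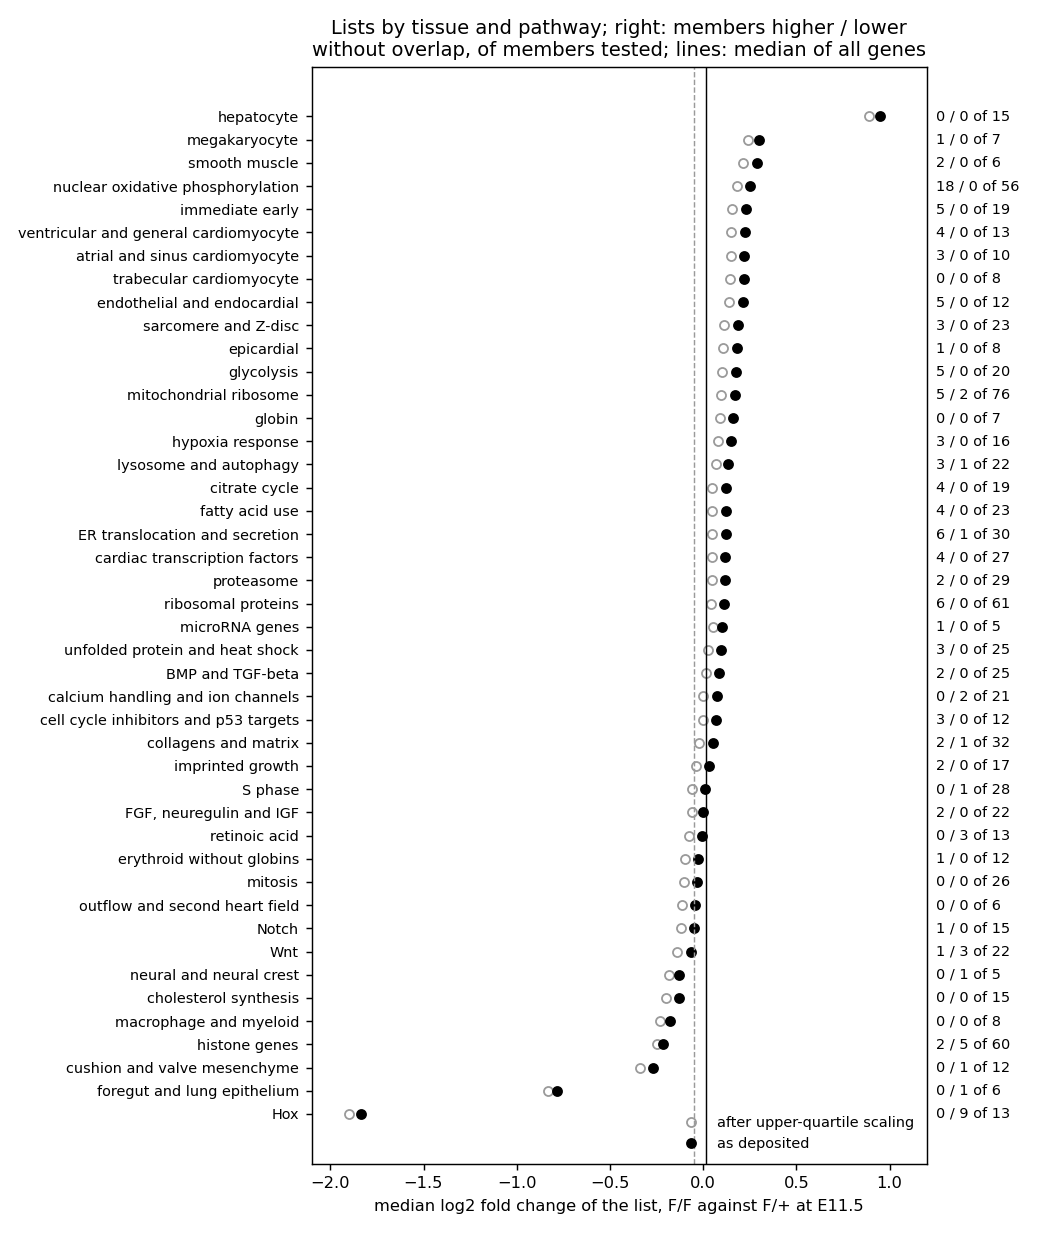
Median log2 fold change (x axis, F/F against F/+ at E11.5) of each gene list, as deposited (filled) and after upper-quartile scaling (open), with members higher and lower without overlap at the right. Lines give the median of all tested genes. The Hox list lies at -1.83, most heart muscle and metabolism lists between 0.1 and 0.3, and the hepatocyte list at 0.95.

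Sec61b, a subunit of the channel that moves proteins into the endoplasmic reticulum, had the smallest unadjusted limma p after Mir6236, at 4.11e-05 (adjusted 0.232, and 0.0154 to 1 over the alternatives). It was at 20.2, 21.4 and 23.4 FPKM in F/+ and 8.32, 8.55 and 7.41 FPKM in F/F (log2 fold change -1.32, SE 0.19). The spread was small, with an SD of 1.62 FPKM in F/+ and 0.603 FPKM in F/F. At E16.5 it was at 6.94, 7.41 and 7.74 FPKM in F/+ and 6.08, 5.41 and 4.38 FPKM in F/F, again lower in each F/F library. In single cells, however, it had 14250 UMIs in +/+ and 20303 in F/F, a log2 ratio of CPM of 0.09 (95% counting interval 0.06 to 0.12). Of 30 tested genes of translocation and secretion 6 were higher, 3 after upper-quartile scaling, and Sec61b was the 1 that was lower.
Several other genes with large fold changes had bulk levels that were low beside their UMI counts. Prdx1, a peroxidase, was at 10.2, 8.90 and 14.9 FPKM in F/+ and 4.18, 0.200 and 5.78 FPKM in F/F, yet had 27054 and 39028 UMIs, more than Tnni3 with 13742 and 22887. Snrpe, a spliceosome protein, was at 32.1, 0.5 and 22.6 FPKM against 54.3, 41.4 and 35.0 FPKM, with 20109 and 29041 UMIs. Rnaset2a was at 0, 7.28 and 7.44 FPKM in F/+ and 13.3, 16.9 and 22.0 FPKM in F/F, while its near-identical copy Rnaset2b was at 12.8, 9.43 and 0 FPKM against 0, 0 and 0.0100 FPKM, so how reads were divided between the copies makes both values uncertain. The counting of reads with several matches is not given in the sources used here, and its part in these 4 genes was not tested. Other genes among the largest changes were Vps29, Sptssa, Syap1, Alyref2 and 2610306M01Rik on the higher side, at log2 fold changes of 1.35, 1.2, 1.07, 1.42 and 1.58, and Hist1h2bb, Nudt21 and 2610203C20Rik on the lower side, at -2.19, -1.43 and -1.40.

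The later stage offers the same contrast, F/F against F/+, in ventricles at E16.5. There 417 of 10699 genes were higher without overlap (3.9%) and 308 lower (2.88%). The interaction of genotype and stage, tested over 11423 genes, passed limma's adjusted threshold for 1 gene (0.00875%), Mir6236, and 493 genes had an unadjusted p under 0.05 (4.32%). For the Hox genes a comparison between stages has little to read, since 1 of them passed the filter at E16.5 and Hoxa5 was at 0.240 to 0.510 FPKM in all 6 ventricle libraries. The smallest limma adjusted p of the interaction after Mir6236 among the named genes was 0.116, for Hoxc5. Of 56 oxidative phosphorylation genes 1 was higher and 2 were lower at E16.5, with a median of -0.01, and Cox7a1 had a log2 fold change of -0.09 there; its interaction had a limma adjusted p of 0.843. Clec14a and Tbx20 had log2 fold changes of -0.12 and -0.07 at E16.5, with overlapping groups. The E11.5 samples are whole hearts and the E16.5 samples ventricles, so stage and dissection cannot be told apart.

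Levels in the pair of single-cell libraries, F/F against +/+, were set beside the bulk values as a description. With 50 or more UMIs required of both libraries, the log2 ratio of CPM was above 0 for 57.6% of 523 genes that were higher in bulk F/F hearts, for 42% of 421 that were lower and for 45.5% of all 10438. The medians were 0.03, -0.03 and -0.02, so the shifts were small beside the bulk fold changes. Tnni3 and Myl7 had log2 ratios of 0.31 (0.28 to 0.34) and 0.36 (0.35 to 0.37), while Cox7a1 was at 0.06 (-0.01 to 0.12). Hoxa5 had 31 UMIs in +/+ and 21 in F/F, a log2 ratio of -0.99 (-1.86 to -0.14), and Sfrp2 and Osr1 were at -0.85 (-1.15 to -0.55) and -0.56 (-1.02 to -0.11). Other Hox genes that were lower in bulk varied in sign: Hoxa4 (9 and 2 UMIs) was at -2.60 (-5.84 to -0.32), Hoxb3 (19 and 24) at -0.09 (-1.02 to 0.86), Hoxa3 (25 and 37) at 0.14 (-0.63 to 0.93) and Hoxa2 (6 and 20) at 1.31 (-0.06 to 2.92). Stra6, with 10 and 28 UMIs, was at 1.06 (-0.025 to 2.27). Crabp2, with 144 and 204 UMIs, was at 0.08 (-0.24 to 0.40), unlike its bulk value. The intervals are exact at 95% and cover counting error only, and the control is +/+ here and F/+ in bulk.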

How the data were processed

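Bulk values were FPKM as deposited by the authors; no header names the unit, which was inferred from the values, and depth is unknown. Single-cell values were UMI counts as deposited. Per the labels' protocols, a stranded kit was used on poly(A) RNA for bulk libraries. Per the submitters' processing notes, CASAVA, TopHat, TopHat2 2.0.11 and mm9 were named for bulk and Cell Ranger and mm10 for single cells; the quantifier is not given in the sources used here. Identical lines were merged (24025 genes). limma 3.58.1 with an intensity trend (R 4.3.3) was fitted to log2(FPKM + 1) of the 11491 genes whose mean reached 1 FPKM, with Benjamini-Hochberg adjustment; this scale understates the change of low genes. On simulated data with 200 changed genes, it recovered 8.5% of changes of 1 and 72.5% of changes of 2 on the log2 scale. The members and lists were chosen with earlier results of these data known. Named genes were the locus, called genes, the 12 highest and 12 lowest separated genes whose mean reached 5 FPKM, up to 4 separated members per list, the 6 smallest p-values, microRNA genes at 0 in a whole group, and tissue markers; list members named outside these rules were picked with their values in view. Single cells (Scanpy 1.11.5, Python 3.11.15) with at least 500 genes were kept; scrublet's threshold marked 2 and 20 barcodes, so the highest scores were removed (52 and 96), and Leiden resolution was 1. Marker lists named clusters. Alternatives covered pseudocount, filters, scalings, a Y-linked covariate, a replicate block, array weights, all 25 bulk libraries in 1 fit, and leaving libraries out. Values of 1 gene are not reported here.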

Additional observations from a re-analysis of the deposited data

Results flagged for a closer look

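The genotype difference of Mir6236 differed between the stages. It was listed at 10852 to 27597 FPKM in F/F and 0 in F/+ at E11.5, and at 0 in F/F and 17.6 to 48.8 FPKM in F/+ at E16.5, and limma's test of the interaction of genotype and stage gave an adjusted p of 6.42e-11.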

How the results depend on the processing

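The number of called genes was 1 as reported, 88 with all 25 bulk libraries in 1 fit, 19 with array weights, 0 after rescaling without globin and small RNA genes (which drops Mir6236) and 1 to 2 when each library was left out. With the replicate number as a block it was 2, although same-numbered libraries did not deviate together (r of -0.036, -0.017 and 0.082). Genes higher without overlap numbered 361 after upper-quartile scaling and 322 after rescaling. They numbered 1896 without F/+ replicate 1 and F/F replicate 2, and 957 to 1246 with each library left out. Lower genes numbered 263 at a mean of at least 5 FPKM, 844 after rescaling, 1359 without those libraries, and 730 to 1774. Leaving a library out cannot lower these counts. The Hand2 log2 fold change was -0.048 after upper-quartile scaling, -0.066 after rescaling, -0.175 without those libraries and -0.133 to 0.145 with each left out. Interaction calls were 3 with no filter, 2 with a pseudocount of 0.1 and 1 to 10 with each of 12 libraries left out, 10 without F/+ E11.5 replicate 3. Of 1816 alternative values for the 107 named genes outside the Hand2 locus none changed sign and 32, in 21 genes, passed the threshold only there. Many of these genes were named because their groups do not overlap, and leaving out a library cannot turn the sign of such a gene. The absence of sign changes is therefore no test of their stability. Of 829 list medians 72 changed sign. Crabp2 is the called gene the block adds. Depth is unknown, and 3 libraries a group detect large changes only.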
